A study of Homo sapiens with 6 samples.

Results

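Chemokines and cytokines are small secreted or membrane-bound proteins through which fibroblasts call in and instruct immune cells. The genes described here encode such ligands: the CXC, CC and CX3C chemokines, the interleukins, the members of the TNF superfamily named TNFSF with a number, and *LIF*, *OSM*, *CLCF1*, *CSF1*, *CSF2*, *CSF3*, *TNF* and *TSLP*. They were chosen by gene symbol among protein-coding genes, which gave 93 of the 60663 genes in the count table. The symbol rule uses no measured value, but it was written with earlier results of these data known. They were measured in CCD18Co cells, an established line of human fibroblasts from normal colon, transfected with siRNAs against *LTBP2* (siLTBP2) or with a non-targeting siRNA pool (siNT) by means of the same lipid reagent. Total RNA was sequenced 48 h after transfection in 3 libraries of each group, so that both groups carried an siRNA and the reagent and no untransfected cells were compared. *LTBP2* encodes a secreted protein of the extracellular matrix, and the comparison asks what its loss does to fibroblast gene expression.

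Chemokines bind G protein-coupled receptors and guide the migration of leukocytes. Cytokines of the IL6 family share the signalling receptor chain gp130, encoded by *IL6ST*, and act through JAK kinases and STAT3. Many of these ligand genes are switched on together by NF-κB, the transcription factor downstream of TNF and IL1 receptors. Fibroblasts that secrete such ligands are a known feature of inflamed and tumor tissue.

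Between 44663424 and 53576899 reads were counted on genes per library, so that 1 CPM (a gene's reads relative to the TMM-scaled library total) stood for 43.6 to 53.9 reads. *LTBP2* was at 23.1 ± 1.89 CPM in siNT against 7.03 ± 1.39 CPM in siLTBP2 (SD, n = 3), with a log2 fold change of -1.72 (SE 0.15, adjusted p = 6.6e-05). All 10 fibroblast markers examined passed the low-count filter, and their summed level was 9959 to 13222 CPM in siNT and 10098 to 14431 CPM in siLTBP2, with *PDGFRB* lower (log2 fold change -0.60, adjusted p = 0.0025). Of 12 leukocyte markers, 1 passed the filter (*CSF1R*) and *CD2* and *MS4A1* had no read in any library, with sums of 0.709 to 1.08 CPM in siNT and 1.42 to 1.97 CPM in siLTBP2. Of 8 epithelial markers, 2 passed the filter (*KRT8* and *KRT18*), with sums of 40.3 to 52.8 and 85.9 to 99.4 CPM, with *KRT18* higher (1.15, adjusted p = 2.4e-04) and no read of *KRT20*. Of 6 endothelial markers, 2 passed (*TEK* and *VWF*), with sums of 67.5 to 83.6 and 59.9 to 74.3 CPM. The part of these markers in the results was not tested. The labels do not say whether the libraries came from separate cultures, so the p-values measure the spread between these samples, which may be technical. In bulk RNA, fewer cells that make a ligand and less of its RNA per cell cannot be told apart.

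Of the 93 ligand genes, 27 had no read in any library, 36 had reads but failed the low-count filter, and 30 were tested among 16920 genes. *IL16*, *LIF*, *IL6*, *CXCL16*, *TNFSF18*, *TSLP*, *CCL2*, *CXCL10* and *CXCL1* were lower in siLTBP2, and *TNFSF15* was higher. These are 9 lower genes, or 30% of the 30, where 9.51% of all tested genes were lower, and 1 higher gene, or 3.33%, where 9.76% of all tested genes were higher. Since the set was proposed with earlier results known and only genes that passed the filter are counted, these shares are a description. The test was edgeR's quasi-likelihood test with Benjamini-Hochberg adjustment over all tested genes, and a gene was called at an adjusted p below 0.05. At an adjusted p below 0.01 and a change of more than 2-fold, 6 ligand genes were lower and 1 was higher, against 1.27% and 1.29% of all tested genes.

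The median log2 fold change of the 30 genes was -0.31, and that of all tested genes was -0.006. Values were below 0 in 21 of the 30 and above 0 in 9. In 14 of the 30, all 3 siLTBP2 libraries lay on one side of all 3 siNT libraries, as they did in 37% of all tested genes. For any such gene an exact two-sided permutation test of the 6 values gives p = 0.1, the smallest that 3 libraries against 3 allow. Of the 30 genes, 25 reached the count minimum in all libraries, 3 did so in more siNT than siLTBP2 libraries (*CXCL10*, *IL17B* and *IL33*), and 2 did so in more siLTBP2 than siNT libraries (*IL24* and *TNFSF15*).

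**Figure D1:**
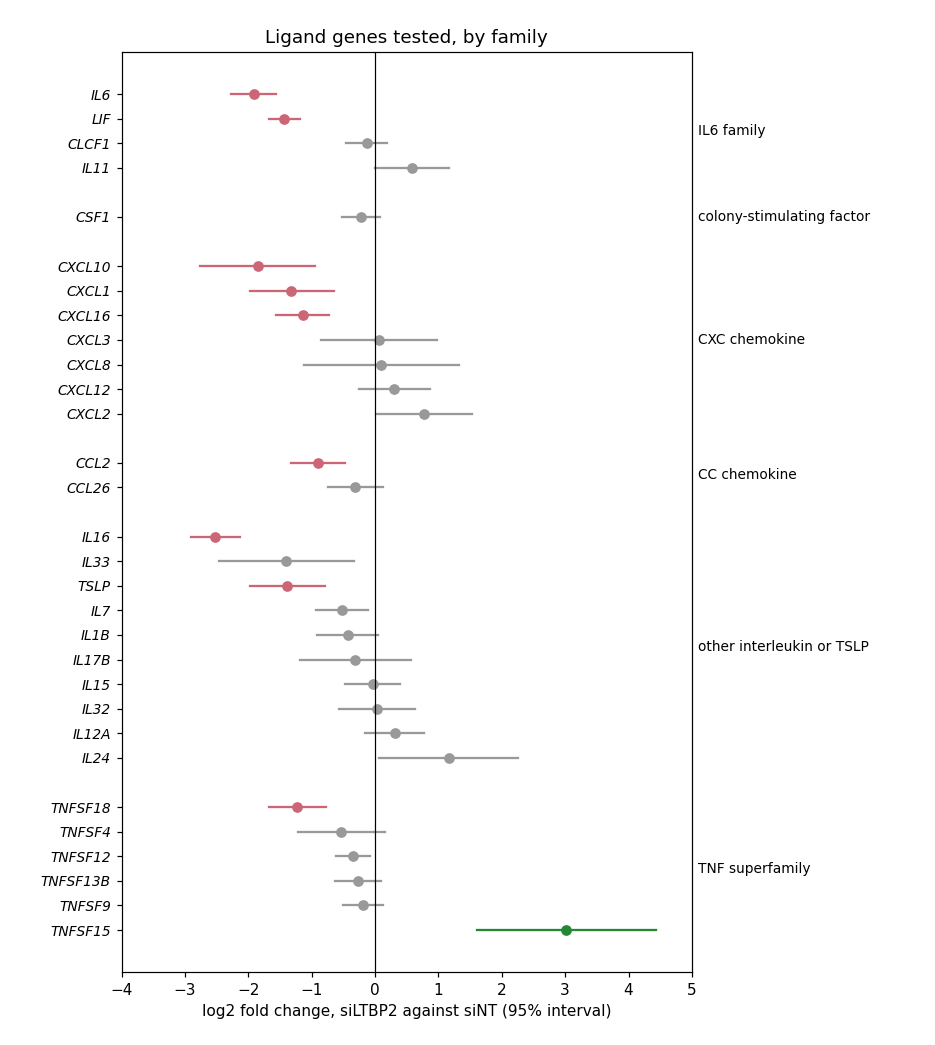
Log2 fold change of siLTBP2 against siNT for the 30 ligand genes tested, grouped by family, with 95% intervals from edgeR's quasi-likelihood test (3 libraries per group). Red points are the 9 genes called lower, the green point is *TNFSF15*, the 1 gene called higher, and grey points are the 20 genes that did not pass an adjusted p of 0.05.

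In the IL6 family, *IL6* and *LIF* were both lower. Of its 5 genes, 4 were tested, and *IL11* and *CLCF1* did not pass. *IL6*, the founding member, which drives acute-phase and stromal inflammatory signalling, lies on the plus strand of chromosome 7 of GRCh38, at chr7:22725884-22732002. It was at 25.0, 32.4 and 32.7 CPM in the siNT libraries and 6.40, 7.91 and 9.55 CPM in the siLTBP2 libraries. The highest siLTBP2 library was below the lowest siNT library by more than 2-fold. The siLTBP2 mean was 26.5% of the siNT mean, with a log2 fold change of -1.91 (SE 0.16, adjusted p = 5.7e-05). Exons of *IL6* share 428 bases with the antisense *IL6-AS1* and 46 bases with *STEAP1B* on the other strand, which had 0.91 and 0.885 CPM in siNT and log2 fold changes of -0.54 (adjusted p = 0.15) and -0.24 (adjusted p = 0.62).

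*LIF* encodes leukemia inhibitory factor, which binds its own receptor together with gp130 and is secreted by inflammatory fibroblasts. The gene is on the minus strand at chr22:30240453-30246759. Its levels were 165, 183 and 182 CPM in siNT and 55.8, 73.5 and 67.5 CPM in siLTBP2, so the groups were far apart and each varied little. The siLTBP2 mean was 37.1% of the siNT mean (log2 fold change -1.43, SE 0.11, adjusted p = 3.5e-05). *LIF-AS2*, a long noncoding RNA on the other strand that shares 83 exon bases with *LIF*, was at 1.41 CPM in siNT against 0.606 CPM in siLTBP2, with a log2 fold change of -1.22 (SE 0.26, adjusted p = 0.0092). Whether the counting used strand is not given in the sources used here, so reads over the shared bases cannot be assigned with certainty.

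*IL11*, a gp130 cytokine that fibroblasts make in response to TGF-β, had values on the other side of 0. Its levels were 47.7, 38.5 and 63.4 CPM in siNT and 50.8, 60.4 and 112.5 CPM in siLTBP2, and the groups overlapped, with siLTBP2 replicate 3 the highest of the 6. The log2 fold change was 0.58 (SE 0.26, adjusted p = 0.16). The gene passed 0.05 when siLTBP2 replicate 1 was left out (0.045), while without siLTBP2 replicate 3 the log2 fold change was 0.16. It also passed when the low-count filter was dropped (4.9e-06), at nearly the same log2 fold change (0.57). That fit changed adjusted p-values widely, with *LTBP2* at 4.5e-32 against 6.6e-05 with the filter and *TNFSF12* at 0.15 against 0.07. *CLCF1*, which encodes another ligand of the family, had a log2 fold change of -0.13 (95% interval -0.46 to 0.19, adjusted p = 0.59). *OSM*, the ligand of *OSMR*, had 2 reads in all.

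**Figure D2:**
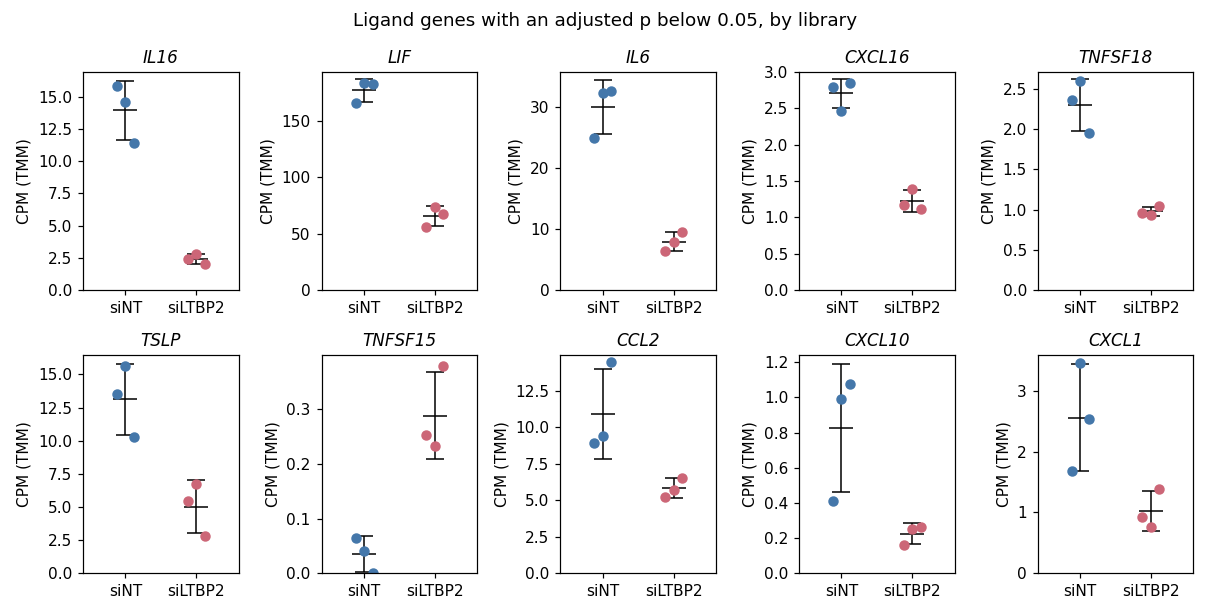
TMM-scaled CPM of the 10 ligand genes with an adjusted p below 0.05, each on its own linear axis from 0, with 1 point per library and the mean and SD of 3 libraries in black. In each panel the siNT points (blue) and the siLTBP2 points (red) do not overlap, with *TNFSF15* the only panel in which siLTBP2 is the higher group.

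Among the other interleukins and *TSLP*, 34 genes in all, 10 were tested, and *IL16* and *TSLP* were lower. *IL16* encodes a precursor of a chemoattractant for cells bearing CD4. It spans chr15:81159575-81314058 on the plus strand and had the greatest fall of the 30 genes. The siNT libraries had 15.8, 14.6 and 11.4 CPM and the siLTBP2 libraries 2.41, 2.83 and 2.05 CPM. The groups were far apart, since the highest siLTBP2 library lay well below the lowest siNT library. The siLTBP2 mean was 17.4% of the siNT mean (log2 fold change -2.52, SE 0.17, adjusted p = 2.6e-05). *IL16* exons share 4351 bases with *STARD5* on the other strand, a lipid transport gene that was at 3.01 CPM in siNT against 2.78 CPM in siLTBP2 (log2 fold change -0.12, adjusted p = 0.71).

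*TSLP* encodes thymic stromal lymphopoietin, a barrier tissue cytokine that acts on dendritic cells and type 2 lymphocytes. It is on the plus strand at chr5:111070062-111078026. Its levels were 13.5, 15.6 and 10.3 CPM in siNT and 5.48, 6.75 and 2.85 CPM in siLTBP2, with replicate 3 the lowest of each group. The log2 fold change was -1.39 (SE 0.27, adjusted p = 0.0053), and the siLTBP2 mean was 38.3% of the siNT mean.

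*IL33*, an alarmin released from damaged stromal and epithelial cells, had a fold change close to that of *TSLP* but few reads. Its levels were 0.324, 0.385 and 0.779 CPM in siNT and 0.138, 0.317 and 0.114 CPM in siLTBP2, which did not overlap. The log2 fold change of -1.40 had an SE of 0.48 and did not pass (adjusted p = 0.067), though it did under the likelihood ratio test (adjusted p = 0.023). *IL7*, a lymphocyte survival factor, was at 2.44 ± 0.36 CPM in siNT against 1.70 ± 0.0713 CPM in siLTBP2 (SD, n = 3), without overlap, with a log2 fold change of -0.52 (SE 0.19, adjusted p = 0.078). *IL24*, of the IL10 family, was at 0.346, 0.182 and 0.835 CPM in siNT and 0.62, 0.867 and 1.59 CPM in siLTBP2, with a log2 fold change of 1.16 (SE 0.49, adjusted p = 0.13). With 1 library left out, that of *IL24* ranged from 0.69 to 1.97, and it passed without siNT replicate 3 (adjusted p = 0.02), while that of *IL33* ranged from -1.99 to -0.90 and passed without siLTBP2 replicate 2 (adjusted p = 0.042).

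The remaining interleukins had small or imprecise differences. *IL1B*, which encodes a central activator of NF-κB, was at 2.58 ± 0.117 CPM in siNT against 1.92 ± 0.494 CPM in siLTBP2 (SD, n = 3), with a log2 fold change of -0.43 (adjusted p = 0.20). *IL12A*, *IL15*, *IL17B* and *IL32* had log2 fold changes of 0.31, -0.03, -0.31 and 0.03, with adjusted p of 0.35 or above. Their 95% intervals do not exclude changes such as -0.47 to 0.40 for *IL15* and -1.18 to 0.56 for *IL17B*.

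In the CXC group, *CXCL16*, *CXCL10* and *CXCL1* were lower. Of 14 genes, 7 were tested, 3 were called (*CXCL16*, *CXCL10* and *CXCL1*) and 4 did not pass (*CXCL2*, *CXCL3*, *CXCL8* and *CXCL12*). *CXCL16* encodes a membrane-anchored chemokine that is shed by ADAM proteases and binds CXCR6 on T and NKT cells. It lies on the minus strand at chr17:4733533-4739928. It was at 2.79, 2.47 and 2.86 CPM in siNT and 1.17, 1.40 and 1.12 CPM in siLTBP2, a narrow spread in both groups. The siLTBP2 mean was 45.4% of the siNT mean (log2 fold change -1.14, SE 0.19, adjusted p = 0.0023). *MED11* and *ZMYND15* share 76 and 96 exon bases with it on the other strand, and *MED11* had a log2 fold change of -0.22 (adjusted p = 0.28).

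*CXCL10*, an interferon-induced ligand of CXCR3 on activated T cells, rested on few reads. Its counts were 19, 49 and 58 in siNT and 7, 12 and 14 in siLTBP2. Each siLTBP2 library was below the lowest siNT library, and siNT replicate 1 was well below the other siNT libraries. The log2 fold change was -1.85 (SE 0.41, adjusted p = 0.010). *CXCL1*, a neutrophil attractant that binds CXCR2, was at 1.69, 3.44 and 2.54 CPM in siNT and 0.918, 0.761 and 1.39 CPM in siLTBP2. Its log2 fold change was -1.32 (SE 0.30, adjusted p = 0.012), and the call was lost without siNT replicate 2 (adjusted p = 0.057) or without siLTBP2 replicate 2 (adjusted p = 0.054).

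*CXCL2* and *CXCL3*, near-identical copies of *CXCL1* in the same region of chromosome 4 that act on the same receptor, did not pass the test. No test of a difference from *CXCL1* was made. *CXCL2* was at 0.541, 0.81 and 0.594 CPM in siNT and 0.574, 1.31 and 1.42 CPM in siLTBP2 (log2 fold change 0.77, SE 0.34, adjusted p = 0.15), and without siLTBP2 replicate 1 it passed at 1.08 (adjusted p = 0.026). *CXCL3* had a log2 fold change of 0.06 (SE 0.41, adjusted p = 0.94). Reads shared between such copies may be lost or split in the counting, so values for the 3 genes are uncertain. *CXCL8*, the main neutrophil attractant, varied more between libraries of a group than between groups, with 5.54, 13.1 and 24.3 CPM in siNT and 5.21, 12.6 and 28.2 CPM in siLTBP2. Its log2 fold change was 0.10 (SE 0.55, 95% interval -1.12 to 1.32, adjusted p = 0.93), so changes of 2-fold in either direction lie inside the interval. In both groups the level of *CXCL8* rose from replicate 1 to replicate 3. With the replicate number added to the quasi-likelihood fit, its log2 fold change was 0.04 (adjusted p = 0.79). *CXCL12*, the ligand of CXCR4 and ACKR3, had a log2 fold change of 0.30 (SE 0.25, adjusted p = 0.45).

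Of 24 CC chemokine genes, 2 were tested and 13 had no read. *CCL2*, which recruits monocytes through CCR2, was lower, at 8.91, 9.40 and 14.5 CPM in siNT and 5.23, 5.73 and 6.57 CPM in siLTBP2. The siNT spread came mainly from replicate 3, and the groups did not overlap. The siLTBP2 mean was 53.5% of the siNT mean (log2 fold change -0.90, SE 0.19, adjusted p = 0.0083), under the 2-fold mark. *CCL26*, an eosinophil attractant, was at 3.21 ± 0.555 and 2.59 ± 0.411 CPM (SD, n = 3), with a log2 fold change of -0.31 (SE 0.20, adjusted p = 0.32).

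The TNF superfamily held the 1 gene that was higher. Of its 12 genes, 6 were tested, with *TNFSF18* lower and *TNFSF15* higher. *TNFSF18* encodes the ligand of GITR, a costimulatory receptor of T cells, and was at 2.36, 2.59 and 1.95 CPM in siNT and 0.964, 0.93 and 1.04 CPM in siLTBP2. Its siLTBP2 libraries were tightly grouped at 42.6% of the siNT mean (log2 fold change -1.23, SE 0.20, adjusted p = 0.0023). *TNFSF15*, whose product TL1A is a T cell costimulator linked to bowel inflammation, had 3, 2 and 0 reads in siNT and 11, 11 and 20 in siLTBP2. It passed the filter through the siLTBP2 libraries alone, and its log2 fold change of 3.02 (95% interval 1.61 to 4.43, adjusted p = 0.0082) is imprecise. It moved to 2.42 without siNT replicate 3 and to 3.73 without siNT replicate 1.

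*TNFSF12* encodes TWEAK and was at 8.25 ± 0.239 CPM in siNT against 6.47 ± 0.388 CPM in siLTBP2 (SD, n = 3). The groups did not overlap, yet the log2 fold change of -0.35 (SE 0.12) did not pass (adjusted p = 0.070). *TNFSF4*, *TNFSF13B* and *TNFSF9*, which encode OX40 ligand, BAFF and 4-1BB ligand, had log2 fold changes of -0.53, -0.27 and -0.19, with adjusted p of 0.28, 0.29 and 0.39. Of the 3 colony-stimulating factors, only *CSF1*, which sustains macrophages, passed the filter. It was at 398, 388 and 314 CPM in siNT and 347.5, 344 and 253 CPM in siLTBP2, with overlapping groups and a log2 fold change of -0.22 (95% interval -0.52 to 0.08, adjusted p = 0.30).

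Of the 36 genes with reads that failed the filter, 13 had at least 10 reads over the 6 libraries. *CX3CL1*, the membrane-bound chemokine fractalkine, had 14, 6 and 8 reads in siNT and 1, 3 and 2 in siLTBP2, and *CXCL11*, another CXCR3 ligand, had 4, 5 and 13 reads against 2, 1 and 1. In a fit without the filter their log2 fold changes were -2.12 (SE 0.71, adjusted p = 0.028) and -2.29 (SE 0.83, adjusted p = 0.052). *CX3CL1* was the 1 gene of the 36 with an adjusted p below 0.05 in that fit. Adjusted p-values of that fit are not on the scale of the main fit, since it put *LTBP2* at 4.5e-32 against 6.6e-05. *IL18*, *CCL24*, *IL23A* and *CSF2* had 46, 45, 39 and 39 reads in all, with adjusted p of 0.83 or above. *IL37*, *TNFSF10*, *IL34*, *CCL3*, *IL19*, *IL1A* and *CSF3* had between 10 and 20 reads, and none of these passed 0.05 in that fit. The other 23 genes with reads had at most 7, *TNF* among them with 1 read.

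Levels were compared between genes per kilobase of exon, with all annotated exons of a gene joined. This length can exceed that of a transcript. For *CCL2* it was 1 block of 1935 bases that covers the whole gene, and for *IL6* it was 4321 bases. The order between genes therefore depends on the annotation. In siNT the order was led by *CSF1* (70.1 CPM per kilobase), *LIF* (45.7), *IL11* (18.6), *TNFSF9* (8.57), *IL6* (6.94), *CCL2* (5.65), *CXCL8* (5.53) and *CLCF1* (5.22). In siLTBP2, *IL11* stood at 27.8 and *LIF* at 16.95 CPM per kilobase, so that their order was the reverse of that in siNT, and *IL6* had gone to 1.84. Between them *CSF1* and *LIF* held most of the ligand RNA. The CPM of the 30 genes summed to 723 to 761 in siNT and to 536 to 572.5 in siLTBP2. *LIF* was 21.9% to 25.2% of the siNT sums and 10.4% to 12.8% of the siLTBP2 sums, and without *CSF1* the sums were 356 to 409 and 188.5 to 296 CPM.

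**Figure D3:**
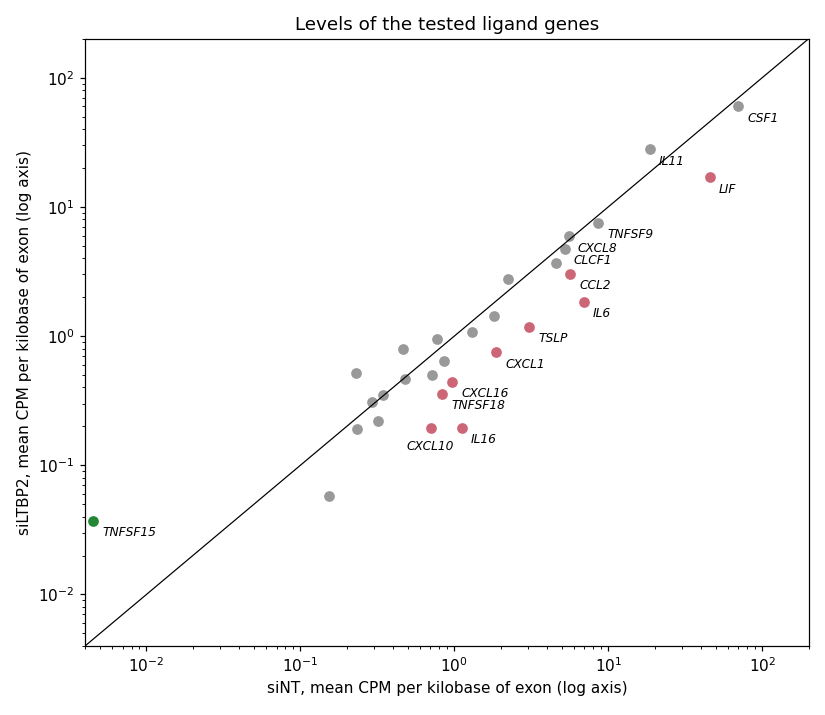
Mean level of each tested ligand gene in siLTBP2 against siNT, in CPM per kilobase of exon on log axes, with the line of equal levels (means of 3 libraries). Red points are called lower and lie below the line, the green point is *TNFSF15*, and grey points did not pass; *LIF*, at 45.7 in siNT and 16.95 in siLTBP2, is the most abundant gene called lower.

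Promoter sequence was read for the ligand genes because many of them are known NF-κB targets. RefSeq promoter windows (GRCh38.p14) were matched for 66 of the 93 genes, 22 of them tested, and the 250 bases upstream of each start were searched on both strands. Of the lower genes, *LIF*, *CCL2* and *CXCL16* had no window and were not searched. The κB motif GGANTTTCC was found in 4 of the 6 lower genes with a window (*IL6*, *CXCL1*, *CXCL10* and *TSLP*) and in 4 of the 15 that did not pass (*CXCL2*, *CXCL3*, *CXCL8* and *IL32*), against 1.45% of 35116 windows. The AP-1 motif TGANTCA was in none of the 6 and in 3 of the 15 (*CXCL8*, *IL11* and *IL17B*), against 6.57% of windows, and the C/EBP motif TTGCNNAA was in 1 of the 6 (*IL6*) and in 4 of the 15 (*CCL26*, *CXCL2*, *IL1B* and *TNFSF13B*), against 9.05%. *TNFSF15*, the remaining gene with a window, held AP-1 and C/EBP matches. A match describes the letters of the window and not a site in use, and the motifs did not overlap each other in the sequences printed here.

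The 200 bases upstream of the start of 3 genes that were lower and of 2 that did not pass are shown 5′ to 3′ on the gene's strand, with the motifs in capitals, to set the κB words of called genes beside those of genes that were not called. They lie at chr7:22727000-22727199 (plus strand) for *IL6*, chr4:73869193-73869392 (plus) for *CXCL1*, chr4:76023498-76023697 (minus) for *CXCL10*, chr4:74099196-74099395 (minus) for *CXCL2* and chr4:73740369-73740568 (plus) for *CXCL8*.
IL6: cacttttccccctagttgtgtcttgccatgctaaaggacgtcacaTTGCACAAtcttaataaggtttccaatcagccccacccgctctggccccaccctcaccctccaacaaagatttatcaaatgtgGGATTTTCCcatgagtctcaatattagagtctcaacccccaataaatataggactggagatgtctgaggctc
CXCL1: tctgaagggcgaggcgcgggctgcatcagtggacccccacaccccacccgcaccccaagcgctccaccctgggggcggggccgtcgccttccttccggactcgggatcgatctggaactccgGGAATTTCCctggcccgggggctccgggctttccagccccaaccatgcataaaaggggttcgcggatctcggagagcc
CXCL10: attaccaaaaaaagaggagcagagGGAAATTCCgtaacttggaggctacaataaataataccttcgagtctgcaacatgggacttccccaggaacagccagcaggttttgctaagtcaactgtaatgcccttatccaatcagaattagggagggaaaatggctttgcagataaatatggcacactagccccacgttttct
CXCL2: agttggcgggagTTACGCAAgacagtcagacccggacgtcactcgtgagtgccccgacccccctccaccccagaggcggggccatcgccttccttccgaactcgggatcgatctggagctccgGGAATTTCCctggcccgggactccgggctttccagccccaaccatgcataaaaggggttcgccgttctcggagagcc
CXCL8: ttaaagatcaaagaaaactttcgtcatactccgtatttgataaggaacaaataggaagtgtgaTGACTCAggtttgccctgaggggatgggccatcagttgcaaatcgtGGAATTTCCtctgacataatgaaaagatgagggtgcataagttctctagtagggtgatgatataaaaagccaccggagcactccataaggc
The κB word starts 72 bases upstream of the start in *IL6*, 78 in *CXCL1*, 176 in *CXCL10*, 77 in *CXCL2* and 91 in *CXCL8*. The start is that of the RefSeq window and can differ from the gene start in GENCODE. For *IL6* and *TSLP* the windows lie inside the gene spans given above. Only the letters given for each motif were searched for. Words of κB, AP-1 or C/EBP of another form were not counted and are not in capitals, so a gene without a match may still hold such a site. *CXCL1* and *CXCL2* hold the same κB word at almost the same distance, and their log2 fold changes were -1.32 (called) and 0.77 (not called). The capitals at 155 bases in *IL6* and at 188 bases in *CXCL2* are C/EBP matches, and those at 137 bases in *CXCL8* are an AP-1 match.

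In 3′ UTRs, the word GCACCCA was looked for because genes that carry it were lower than other genes in these libraries: over 12314 genes with a 3′ UTR, the median log2 fold change was -0.15 for carriers and 0.02 for the others. It was in 3 of the 30 tested ligand genes (10%), and in 11.8% of the 12314. The carriers were *LIF*, *CSF1* and *IL32*, so that 1 of the 9 lower ligand genes held it. Its site in the 3′ UTR of *LIF*, with the word in capitals and 10 bases on each side, is given because *LIF* is that gene, and its part in the fall of *LIF* was not tested.
LIF: ccctgcccctGCACCCAgcatgctccg

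The genes through which these ligands are sensed and processed were counted from lists of receptors, signalling proteins, proteases and further ligands, 216 genes of which 132 were tested. Of the 132, 21 were higher (15.9%) and 18 lower (13.6%), with a median log2 fold change of 0.08, where 9.76% of all tested genes were higher and 9.51% lower. Those shares are the background for each list below. In the 4 receptor lists, 46 genes were tested, of which 8 were higher (17.4%) and 3 lower (6.52%), against the same 9.76% and 9.51%. Beside the genes of smallest p in each list, those named with an adjusted p between 0.01 and 0.05 were chosen after their values were seen.

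Of 23 chemokine receptor genes, 4 were tested and *ACKR3* was lower. ACKR3 is an atypical receptor that binds and removes CXCL12 and CXCL11 without classical signalling. It was at 126, 105.5 and 84.4 CPM in siNT and 23.5, 32.5 and 16.3 CPM in siLTBP2 (log2 fold change -2.13, SE 0.22, adjusted p = 1.7e-04). *CXCR6*, the receptor of CXCL16, had at most 0.0216 CPM in any library, and *CD4*, the receptor of IL16, at most 0.148 CPM.

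Among receptor genes for cytokines of the IL6 family, *OSMR* and *IL31RA* were higher, while *IL6ST* and *IL6R* did not pass. Of the 7 gp130 and colony-stimulating factor receptors tested, *OSMR* (log2 fold change 0.49, adjusted p = 0.0046), *IL31RA* (0.78, adjusted p = 0.0068) and *CSF1R* (0.92, adjusted p = 0.030) were higher and none was lower. *IL6ST* was at 1288 ± 194 CPM in siNT against 1592 ± 126 CPM in siLTBP2 (SD, n = 3) and did not pass (adjusted p = 0.12), and *IL6R* had a log2 fold change of -0.18 (adjusted p = 0.64). Of 19 interleukin receptors tested, *IL1RAP*, the shared chain of IL1 and IL33 receptors, rose from 11.3 ± 1.03 to 22.4 ± 3.19 CPM (SD, n = 3, adjusted p = 5.8e-04), *IL18R1* had a log2 fold change of 0.93 (adjusted p = 0.0057) and *IL13RA1* one of 0.29 (adjusted p = 0.021). Of 16 TNF receptors tested, *TNFRSF10D*, a decoy receptor of TRAIL, and *TNFRSF1B* were higher (0.94 and 0.68) and *TNFRSF14* and *TNFRSF21* lower (-0.60 and -0.57).

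All 39 genes of the NF-κB list were tested, and 7 were lower and 3 higher. The kinase gene *IRAK1*, downstream of IL1 receptors, was at 320 ± 39.6 CPM in siNT against 165 ± 25.9 CPM in siLTBP2 (SD, n = 3, log2 fold change -0.95, adjusted p = 7.1e-04), and *TRAF1* had a log2 fold change of -1.11 (adjusted p = 0.0045). *TNFAIP3*, an NF-κB target that encodes its inhibitor A20, had one of -0.79 (adjusted p = 0.012), and *REL*, *IRAK2*, *NFKB2* and *TRADD* were lower by less. *ZFP36L2*, *CEBPB* and *TRAF2* were higher. Leaving out 1 library ended the call of *TRADD* for each of the 6 libraries, of *TRAF2* for 5, of *REL* and *IRAK2* for 4 and of *NFKB2* for 3. The median log2 fold change of the list was -0.04.

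Of 23 JAK-STAT genes tested, 3 were higher and 5 lower. *SOCS3*, a STAT3 target that restrains gp130 signalling, rose from 66.7 ± 8.26 to 101 ± 6.72 CPM (SD, n = 3, log2 fold change 0.60, adjusted p = 0.0026), and *STAT3* and *JAK2* had log2 fold changes of 0.33 and 0.37 (adjusted p = 0.035 and 0.019). The *STAT3* call ended without any 1 of 4 of the 6 libraries (adjusted p up to 0.13) and the *JAK2* call without any 1 of 3 (up to 0.086). *PIAS3*, an inhibitor of STAT3, was lower (-0.86, adjusted p = 8.1e-04), as were *CISH*, *PTPN2*, *SOCS4* and *TYK2*, with values between -0.82 and -0.36.

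All 17 processing genes were tested, with 5 higher and 3 lower. *DPP4*, a protease that trims the ends of chemokines such as CXCL10 and CXCL12, was at 159, 169 and 130 CPM in siNT and 59.8, 63.4 and 47.0 CPM in siLTBP2 (log2 fold change -1.43, SE 0.13, adjusted p = 8.5e-05). *ADAM17*, which sheds TNF and the IL6 receptor, was higher (0.71, adjusted p = 3.4e-04), as was its inhibitor *TIMP3* (1.07, adjusted p = 0.0034), while *RHBDF2*, a partner of ADAM17, was lower (-1.19, adjusted p = 0.025). *FURIN* was lower (-0.84, adjusted p = 7.3e-04), and *ADAM9*, *CASP4* and *CASP8* were higher by 0.47 or less on the log2 scale. *ADAM10*, a sheddase of CXCL16, had a log2 fold change of -0.27 (adjusted p = 0.16). Of 34 further cytokine ligand genes outside the symbol rule, 7 were tested, and *KITLG* (0.76, adjusted p = 0.018) and *IFNE* (1.24, adjusted p = 0.040) were higher.

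**Figure D4:**
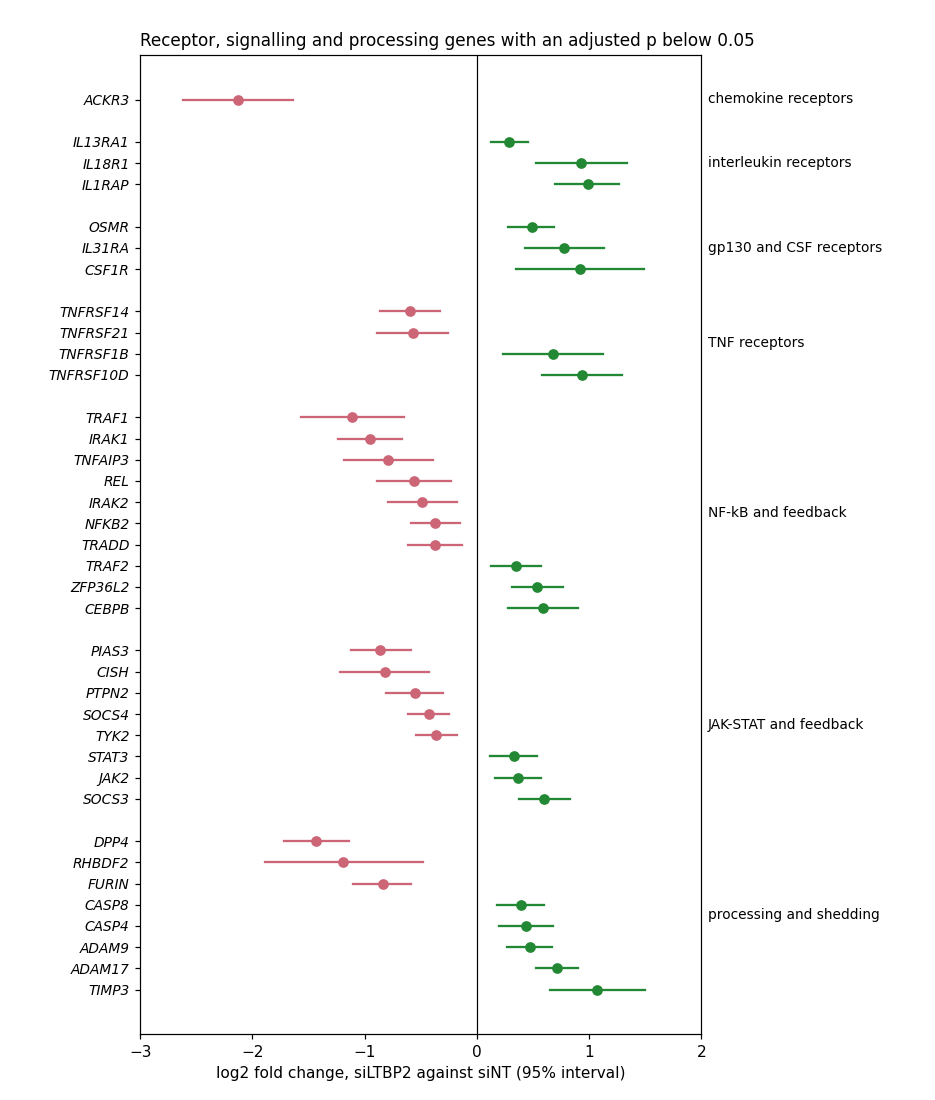
Log2 fold change of siLTBP2 against siNT, with 95% intervals, for the receptor, signalling and processing genes with an adjusted p below 0.05 (edgeR's quasi-likelihood test, 3 libraries per group), grouped by list. *ACKR3*, at -2.13, and *DPP4*, at -1.43, lie farthest below 0, and *TIMP3*, at 1.07, lies farthest above.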

How the data were processed

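Per the labels and the study's methods, the authors sequenced stranded, ribosomal RNA depleted libraries, aligned reads to GRCh38 with STAR 2.7.1a and made the deposited raw counts with HTSeq 0.11.2. For the Ensembl release and the strand setting, none is given in the sources used here. No column of per-sample values was left out.

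Counts of the 6 libraries were filtered with filterByExpr (minimum count 10), scaled by TMM and tested across 16920 genes with the quasi-likelihood test of edgeR 4.0.16 in R 4.3.3, siLTBP2 against siNT, two-sided, with Benjamini-Hochberg adjustment. The study used edgeR's likelihood ratio test, run as an alternative. The SE was taken as the size of the log2 fold change over the root of F. Coordinates, exon lengths and 3′ UTRs are from GENCODE 44. Within groups, libraries differed beyond sampling noise (chi-square per degree of freedom 28.0 to 55.1). The test was checked on simulated data.

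The members, pathway lists, markers and motifs were chosen with earlier results of these data known. Every member tested or with at least 10 reads, and of each pathway list up to 6 genes of adjusted p below 0.01 and 7 receptors or enzymes of *CXCL16*, *IL16* and *IL6*, were to be named. The values of some genes are not reported here. Alternatives were DESeq2 1.42.0, RLE factors, total counts, no filter, 1 CPM in 3 libraries, a replicate block and leaving out each library.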

Additional observations from a re-analysis of the deposited data

How the results depend on the processing

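The 9 lower ligand genes of the report became between 8 and 13 under the alternatives, and *IL16*, *LIF*, *IL6*, *CXCL16*, *TNFSF18*, *TSLP* and *CCL2* kept their calls in all 13. Higher ligand genes (1) were 0 under DESeq2 and with 1 CPM in 3 libraries, where *TNFSF15* had no value, 3 with no filter, 4 with the replicate block, and between 1 and 3 with a library left out (2 without siNT replicate 3, 3 without siLTBP2 replicate 1). Those also past 0.01 and 2-fold (1) were 0 under DESeq2 and with 1 CPM, 2 with no filter, 2 with the block, and 0 without any 1 of the 6 libraries, with *TNFSF15* at an adjusted p of 0.015 to 0.035. Of all genes, 434 passed 0.01 and 2-fold, and 680 did so with no filter. The cause of these shifts was not tested.

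The labels do not say whether libraries of the same number were paired, and the main test took the groups as unpaired. The deviations of same-numbered libraries from their group means correlated at 0.298, 0.083 and 0.428. Those of differently numbered libraries correlated at -0.391 to 0.103. With the replicate block, pathway genes called higher went from 21 to 40 and those called lower from 18 to 32, and *IL11* (adjusted p = 3e-05), *IL24* (0.0018), *CXCL2* (0.031), *IL33* (0.012), *IL7* (0.028), *TNFSF12* (0.016) and *CSF1* (0.015) passed 0.05. With no filter, *IL24* (0.002) and *IL33* (0.0067) passed too, in the fit that put *LTBP2* at 4.5e-32 against 6.6e-05 in the main fit.

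Signs turned for genes near 0. *IL32* was at -0.01 with total counts. With a library left out, log2 fold changes ranged from -0.68 to 0.72 for *CXCL8*, -0.19 to 0.13 for *IL15*, -0.27 to 0.75 for *CXCL3*, -0.18 to 0.21 for *IL32* and -0.41 to 0.03 for *IL6R*. Leaving out a library ended the call of *TRADD* for each of the 6 libraries, of *TRAF2* and *IFNE* for 5, of *STAT3*, *REL*, *IRAK2*, *TNFRSF1B*, *CASP8* and *CSF1R* for 4, of *IL13RA1*, *NFKB2*, *JAK2* and *RHBDF2* for 3, of *TNFRSF21*, *CASP4*, *KITLG* and *CXCL1* for 2 and of *TYK2* for 1. Depth limits genes such as *TNFSF15* and *CXCL10*.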
